A study of Mus musculus with 8 samples.

Results

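Rora, Maf, Bhlhe40, Nfil3 and Rbpj are genes for transcription factors of helper T cells. They were chosen by name, and all 5 were present among the 23366 genes of the count table and passed the filter on low counts. Messenger RNA was measured by RNA-seq in 8 libraries of CD4+ T cells of C57BL/6 mice, in 4 groups of 2. The naive group held untreated cells isolated from spleen and lymph node. The other 3 groups were naive cells activated by antibodies to CD3e and CD28 and kept for 3 days in TGFb and IL-6, a mixture that gives Th17 cells. The Th17 group received nothing further. The PAM3CSK4 group also received PAM3CSK4, a synthetic bacterial-type lipopeptide that is a ligand of Toll-like receptor TLR2. The biglycan group received biglycan, a proteoglycan of the extracellular matrix that can engage Toll-like receptors. Thus Th17 and naive cells differed in activation, cytokines and time in culture together, and these cannot be told apart. Whether both libraries of a group stem from different mice or cultures is not in the labels, so the p-values cover the spread from library to library, which may be technical.

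Th17 cells are helper T cells that make interleukin 17 and guard mucosal surfaces, and they take part in autoimmune inflammation. Rora encodes a retinoic acid receptor-related orphan receptor, which acts with other factors to drive the Th17 programme. Maf encodes c-Maf, a basic leucine zipper factor that promotes IL-10 and other regulatory genes in T cells. Bhlhe40 encodes a basic helix-loop-helix repressor that binds E-boxes, restrains IL-10 and feeds back on the circadian clock. Nfil3 encodes a basic leucine zipper repressor that binds D-boxes of clock genes and links the clock to Th17 differentiation. Rbpj encodes the DNA-binding protein through which the Notch receptors regulate their targets: without Notch it recruits corepressors, and with the cleaved Notch domain it recruits Mastermind-like coactivators.

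The reference promoter windows of the genes are shown because the RNA level of each of these genes changed on polarization, Nfil3 downwards and the others upwards, and they were searched for the sites of the 5 factors themselves and of factors of the pathways studied. Windows for 3 of the 5 genes (Rora, Nfil3 and Rbpj) were matched by symbol in RefSeq, build GRCm38.p6. Each is the 250 bases before the gene's start, read 5′ to 3′ on the gene's own strand. The Rora window lies at chr9:68653536-68653785 on the plus strand, the Nfil3 window at chr13:52981040-52981289 on the minus strand, and the first of 2 Rbpj windows at chr5:53590096-53590345 on the plus strand. Capitals mark every match, on either strand, to the 10 motifs searched.
Rora: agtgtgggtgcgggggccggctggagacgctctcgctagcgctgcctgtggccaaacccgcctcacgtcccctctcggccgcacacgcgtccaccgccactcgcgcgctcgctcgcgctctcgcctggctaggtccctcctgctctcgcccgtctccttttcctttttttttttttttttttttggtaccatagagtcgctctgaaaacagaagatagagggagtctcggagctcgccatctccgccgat
Nfil3: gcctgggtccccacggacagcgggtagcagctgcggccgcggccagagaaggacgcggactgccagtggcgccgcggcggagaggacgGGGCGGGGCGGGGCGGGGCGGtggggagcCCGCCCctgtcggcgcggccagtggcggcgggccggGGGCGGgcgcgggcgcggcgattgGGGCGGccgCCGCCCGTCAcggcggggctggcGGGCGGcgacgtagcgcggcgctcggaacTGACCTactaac
Rbpj: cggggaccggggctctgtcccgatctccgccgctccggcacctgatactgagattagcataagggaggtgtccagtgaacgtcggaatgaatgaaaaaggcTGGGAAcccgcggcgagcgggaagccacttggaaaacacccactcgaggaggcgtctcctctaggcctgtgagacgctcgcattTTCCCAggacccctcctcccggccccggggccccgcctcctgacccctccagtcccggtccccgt

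The motifs were the E-box CACGTG of Bhlhe40 and clock factors, the core site AGGTCA of ROR factors, the Rbpj site TGGGAA, the D-box TTANGTAA of Nfil3, the AP-1 site TGANTCA, the Maf core site TGCTGA, the STAT site TTCNNNGAA, the GC box GGGCGG of Sp factors, the kappa B site and the CRE core site TGACG. The Rora window, 61.2% G and C, held none of these letters. The Rbpj window, 65.2% G and C, held its own factor's site on each strand, beginning 149 and 65 bases before the start. Of all 32536 promoter windows of this length, 21.6% held that site. The Nfil3 window was 81.6% G and C, against a median of 52.4% over all windows. It held 9 GC boxes, some of them overlapping by 1 base, and 33.0% of all windows held at least 1. It also held a ROR core site on the reverse strand, beginning 12 bases before the start (14.0% of all windows held 1), and a CRE core site that overlaps a GC box by 1 base (17.9%). The other shares over all windows were 6.04% for the E-box, 2.03% for the D-box, 6.73% for AP-1, 16.1% for the Maf core site, 7.04% for STAT and 7.28% for kappa B. These matches describe the letters of the windows and were not tested as binding sites.

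The libraries held 7012244 to 12533045 gene counts and 12847 to 13774 genes with a count. Summed levels of 6 T cell markers, among them Cd3e and Cd4, were 4349 to 5017 CPM (counts scaled to the total of the library) in the 8 libraries. Single markers moved apart. For Th17 against naive libraries the log2 fold change was -0.94 for Cd3e, -0.91 for Cd4 and -0.87 for Cd3g. It was 1.27 for Cd28, -0.07 for Cd5 and -0.01 for Cd3d. Summed levels of 6 B cell markers were 0.484 to 3.73 CPM. Mitochondrial RNA made up 9.87 to 12.0% of reads in naive libraries and 14.3 to 16.1% in the polarized ones. Summed levels of 7 CD8 T and NK cell markers were 96.7 to 97.8 CPM in naive libraries and 50.7 to 69.6 CPM in the polarized ones. Ncr1, a defining NK cell marker, had 0 counts in every library. Among the 4 that passed the filter on low counts, the log2 fold change for Th17 against naive libraries was -4.43 for Prf1, -2.88 for Eomes and -2.07 for Cd8b1. Klrd1 went the other way, with 1.44. Summed levels of 7 myeloid markers were 14.4 to 16.4 CPM in naive libraries and 5.26 to 8.03 CPM in the polarized ones. The part of these differences in the results on polarization was not tested.

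Polarization changed all 5 genes. Rora, Maf, Bhlhe40 and Rbpj rose and Nfil3 fell, as the plot of levels by library shows. Of the 11629 genes tested, 37.8% were called higher in Th17 than in naive cells and 34.4% lower, so being called is common here and the sizes carry the description. A gene was called at an adjusted p under 0.05 in edgeR's quasi-likelihood test with Benjamini-Hochberg adjustment over all tested genes. The median log2 fold change was 2.92 over the 5 genes and 0.03 over all tested genes. In bulk RNA, a change in the share of cells that express a gene and a change in RNA per cell cannot be told apart.

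**Figure D1:**
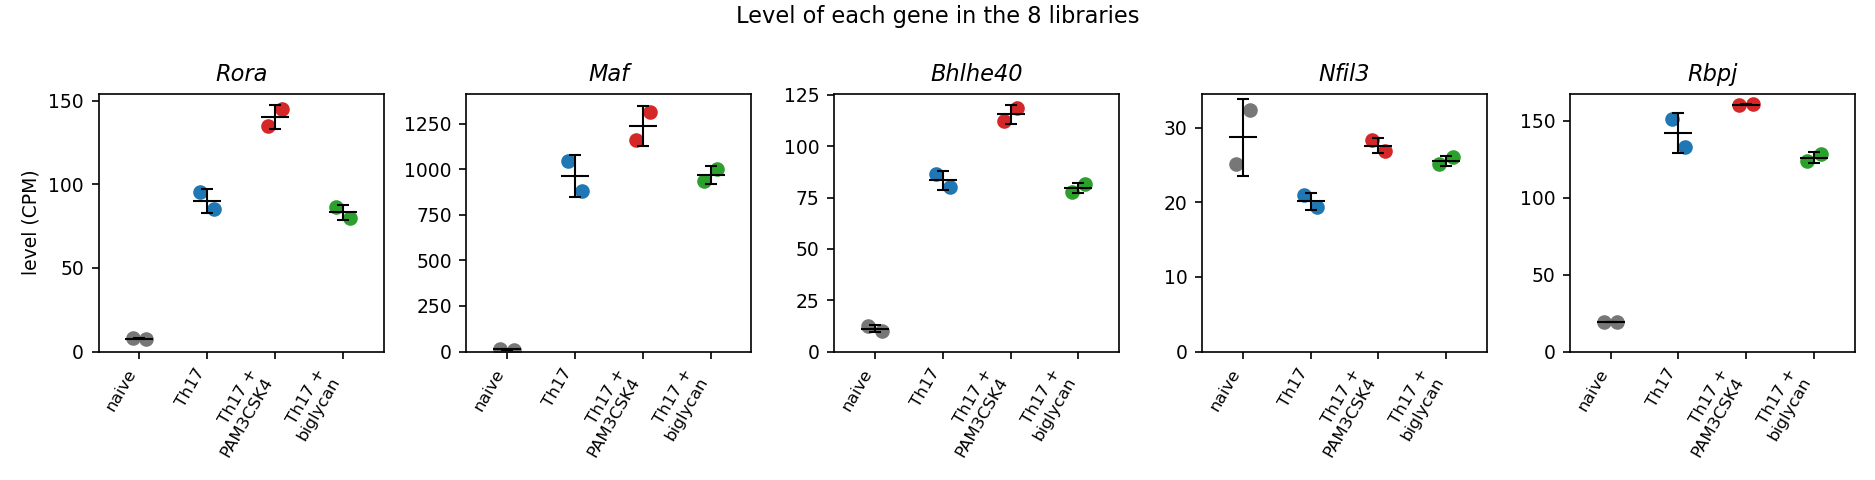
Level of each gene in CPM (linear axes from 0) in the 4 groups; points are the 2 libraries of a group, the long dash is their mean and the bar their SD. Maf spans 10.6 to 1317 CPM over the 8 libraries, while Nfil3 spans 19.3 to 32.4 CPM.

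Maf, the c-Maf gene, had the largest change of the 5. Its level was 14.0 and 10.6 CPM in naive replicates 1 and 2, and 1044 and 880 CPM in Th17 replicates 1 and 2. Both Th17 libraries were far above both naive ones. The rise was 78.7-fold (log2 fold change 6.30 ± 0.14 SE, 2 libraries a group; edgeR adjusted p = 8.63e-19), and 2.71% of tested genes rose more.

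Rora had 7.91 and 7.46 CPM in the naive libraries and 95.2 and 85.2 CPM in the Th17 libraries. The groups lay far apart, with a rise of 11.8-fold (log2 fold change 3.56 ± 0.13 SE; edgeR adjusted p = 7.71e-16). In naive cells these levels rested on 53 and 59 counts.

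Bhlhe40 and Rbpj rose by similar amounts. Bhlhe40, the E-box repressor, had 12.2 and 9.99 CPM in naive libraries and 86.6 and 80.2 CPM in Th17 libraries, a rise of 7.55-fold (log2 fold change 2.92 ± 0.12 SE; edgeR adjusted p = 6.71e-15). Rbpj, the Notch effector, had 19.1 and 19.3 CPM in naive libraries and 151 and 133 CPM in Th17 libraries, a rise of 7.38-fold (log2 fold change 2.88 ± 0.10 SE; edgeR adjusted p = 7.71e-16). The reference genome holds processed copies of Rbpj that are no rows of the count table, so reads shared with them could be missing from its counts.

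Nfil3, the D-box repressor, went the other way. Its level was 25.1 and 32.4 CPM in naive libraries and 20.9 and 19.3 CPM in Th17 libraries. The 2 groups did not overlap, but the naive libraries differed from each other by more than the gap between the groups. Th17 cells were lower by 0.52 on the log2 scale (log2 fold change -0.52 ± 0.13 SE; edgeR adjusted p = 0.00177). Without naive replicate 2 the log2 fold change was -0.32 and the call ended, with adjusted p = 0.0674 against a range of 1.44e-04 to 0.0674 over the 12 alternatives. In the deposited RPKM, naive replicate 1 had 5.87 and Th17 replicate 1 had 6.14, so the groups overlapped on that scale.

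Per kilobase, Nfil3 was the most abundant of the 5 in naive cells and the least abundant in every polarized group. On the authors' RPKM scale its naive level was 6.97 ± 1.56 (SD, n = 2), while Rora, Bhlhe40, Maf and Rbpj had 1.69, 1.57, 1.50 and 1.40. The spreads of Rora, Bhlhe40 and Maf overlapped, as did those of Maf and Rbpj. In Th17 cells Maf had 145 ± 18.3 RPKM, Rora 27.6 ± 2.32, Bhlhe40 15.0 ± 0.956, Rbpj 13.2 ± 1.40 and Nfil3 5.88 ± 0.363. In that order the spreads of Bhlhe40 and Rbpj overlapped and those of the other neighbours did not. The order in Th17 cells was the same with PAM3CSK4 and with biglycan.

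**Figure D2:**
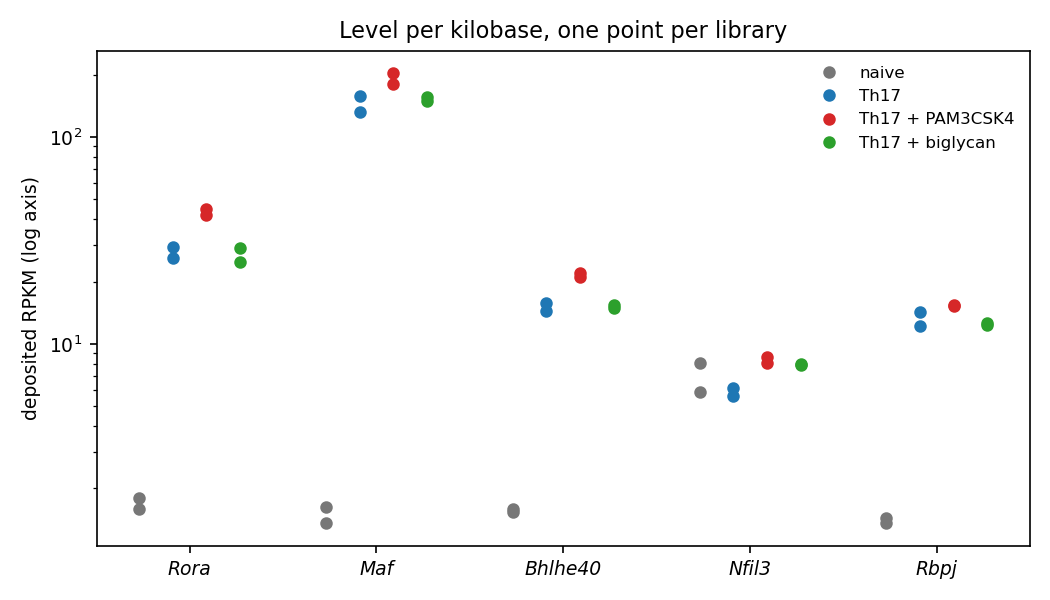
Authors' RPKM (log axis) of each gene, one point per library, coloured by group. Nfil3 is the highest of the 5 in naive cells, at 5.87 and 8.08 RPKM, and Maf the highest in all polarized libraries, at 132 to 203 RPKM.

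PAM3CSK4 raised 4 of the 5 genes over Th17 cells. Rora, Bhlhe40 and Maf rose beyond their rise on polarization. Nfil3, which had fallen on polarization, rose against that change, and Rbpj did not pass the test. The Th17 libraries used here are also those compared with naive cells and with biglycan. A fall on polarization and a rise over Th17 are therefore not independent results. Over all tested genes 5.21% were called higher and 4.78% lower. The median log2 fold change was 0.45 over the 5 genes and -0.00 over all tested genes. These 1162 called genes became 361 without Th17 replicate 2, and 594 and 387 when PAM3CSK4 replicates 3 and 4 were left out. The rises of the 4 called genes lay between 1.29-fold and 1.55-fold. Mitochondrial RNA made up 15.7 to 16.0% of reads in Th17 libraries and 14.3 to 14.7% with PAM3CSK4. The summed level of the CD8 T and NK cell markers was 50.7 to 53.1 CPM in Th17 libraries, 67.3 to 69.6 CPM with PAM3CSK4 and 56.2 to 57.9 CPM with biglycan. Of their 4 tested genes only Klrd1, a killer cell lectin-like receptor, was called, higher with PAM3CSK4 (0.46 ± 0.09 SE on the log2 scale; edgeR adjusted p = 0.00250). The log2 fold change was -1.72 for Eomes, -0.10 for Prf1 and 0.39 for Cd8b1, so the tested markers did not move together. Ncr1 had 0 counts. The part of these differences in the rises was not tested. Leaving out Th17 replicate 2 or PAM3CSK4 replicate 4 left 2 of the 5 called, Rora and Bhlhe40, which were called in all 11 alternatives.

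Rora rose the most of the 5. It had 95.2 and 85.2 CPM in Th17 libraries and 135 and 145 CPM with PAM3CSK4. Both PAM3CSK4 libraries lay above both Th17 libraries, a rise of 1.55-fold (log2 fold change 0.63 ± 0.08 SE; edgeR adjusted p = 5.82e-05), and 3.15% of tested genes rose more.

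Bhlhe40 had 86.6 and 80.2 CPM in Th17 libraries and 112 and 119 CPM with PAM3CSK4. The libraries did not overlap, and the rise was 1.39-fold (log2 fold change 0.47 ± 0.08 SE; edgeR adjusted p = 0.00103).

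Maf had 1044 and 880 CPM in Th17 libraries and 1163 and 1317 CPM with PAM3CSK4. The groups did not overlap, and the rise was 1.29-fold (log2 fold change 0.37 ± 0.09 SE; edgeR adjusted p = 0.0160). The call depended on 2 libraries: without Th17 replicate 2 the log2 fold change was 0.25 (adjusted p = 0.268), and without PAM3CSK4 replicate 4 it was 0.27 (adjusted p = 0.257). Over its 11 alternatives the adjusted p ranged from 1.08e-04 to 0.268.

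Nfil3 had 20.9 and 19.3 CPM in Th17 libraries and 28.3 and 26.9 CPM with PAM3CSK4. The PAM3CSK4 libraries fell between the 2 naive libraries of 25.1 and 32.4 CPM. The rise over Th17 was 1.37-fold (log2 fold change 0.45 ± 0.13 SE; edgeR adjusted p = 0.0271). This call ended with DESeq2 (log2 fold change 0.45, adjusted p = 0.0778) and without each of the 4 libraries in turn. The log2 fold change was then 0.51 without Th17 replicate 1 (adjusted p = 0.0574), 0.40 without Th17 replicate 2 (0.212), 0.41 with PAM3CSK4 replicate 3 left out (0.169) and 0.49 with replicate 4 left out (0.103). Over its 11 alternatives the adjusted p ranged from 0.00782 to 0.212.

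Rbpj had 151 and 133 CPM in Th17 libraries and 160.3 and 160.5 CPM with PAM3CSK4. The libraries did not overlap, by a small margin. The log2 fold change was 0.17 ± 0.08 SE, with a 95% interval of 0.01 to 0.34 and an edgeR adjusted p = 0.186.

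**Figure D3:**
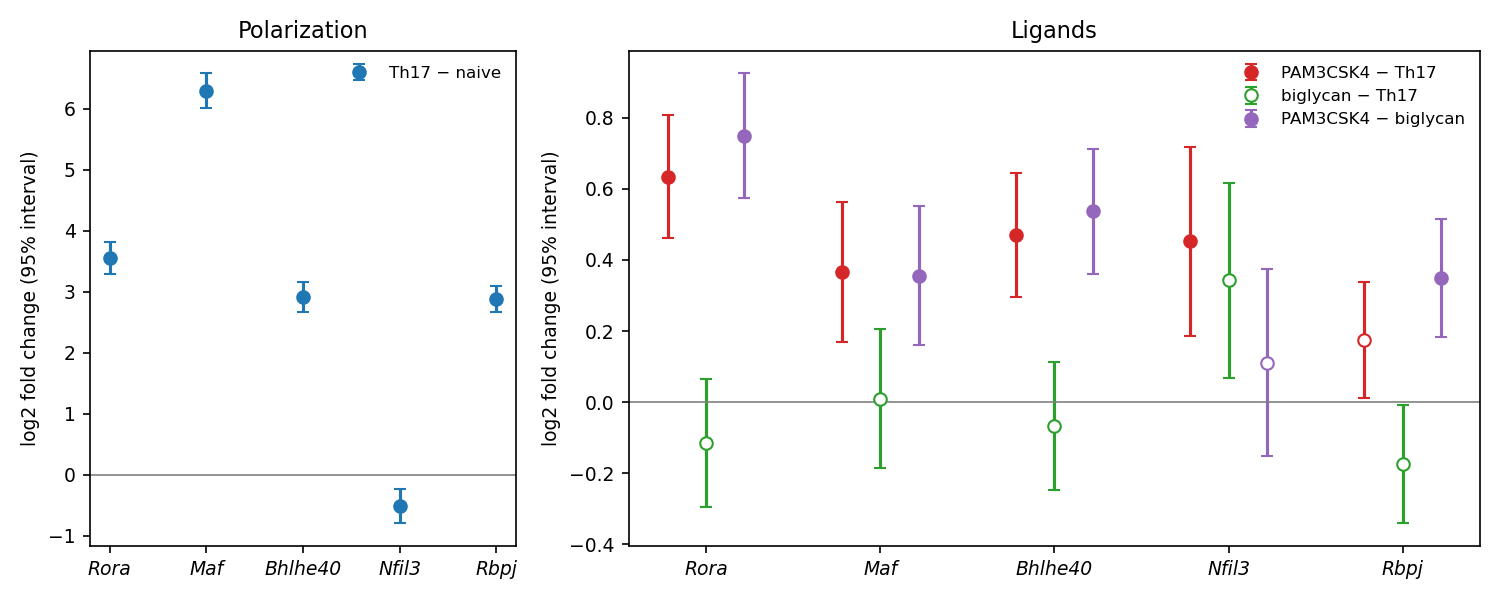
Log2 fold change of each gene with its 95% interval (edgeR, 2 libraries a group), for polarization on the left and for the 2 ligands on the right, on axes of different range; filled points were called and open points were not. Rora changed by 0.63 with PAM3CSK4 and by -0.12 with biglycan, both against Th17.

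With biglycan, 0 of the 5 genes passed the test, and 0 of the 11629 tested genes were called higher or lower (0%). At an unadjusted p under 0.05 there were 507 such genes, Nfil3 and Rbpj among them, and DESeq2 called 0. Leaving out single libraries gave 1 gene (Th17 replicate 1), 4 (Th17 replicate 2), 2 (biglycan replicate 7) and 6 (biglycan replicate 8), none of them among the 5. Every adjusted p of the 5 genes was 1.00 in edgeR. The median log2 fold change was -0.07 over the 5 genes.

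Maf, Rora and Bhlhe40 overlapped between biglycan and Th17 libraries. Maf had 935 and 1002 CPM with biglycan, within the Th17 values of 1044 and 880 CPM. Its log2 fold change was 0.01, with a 95% interval of -0.19 to 0.21. Rora had 86.6 and 80.1 CPM, with a log2 fold change of -0.12 (interval -0.29 to 0.06), and Bhlhe40 had 77.8 and 81.6 CPM, with -0.07 (interval -0.25 to 0.11). The interval of Rora excluded a rise of the size seen with PAM3CSK4.

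Nfil3 and Rbpj did not overlap between biglycan and Th17 libraries, although neither passed the test. Nfil3 had 25.1 and 26.0 CPM with biglycan against 20.9 and 19.3 CPM, a log2 fold change of 0.34 (95% interval 0.07 to 0.62). Rbpj had 124 and 128 CPM with biglycan against 151 and 133 CPM, a log2 fold change of -0.17 (interval -0.34 to -0.01).

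Set directly against biglycan, PAM3CSK4 gave higher levels of Rora, Bhlhe40, Maf and Rbpj. Among all tested genes 5.66% were called higher with PAM3CSK4 than with biglycan and 5.88% lower. These 1342 called genes became 360 and 625 without biglycan replicates 7 and 8, and 777 and 449 without PAM3CSK4 replicates 3 and 4. The Th17 libraries do not enter this difference except through the shared spread, but the PAM3CSK4 libraries are those already compared with Th17. Rora was 1.68-fold higher (log2 difference 0.75 ± 0.08 SE; edgeR adjusted p = 2.20e-05), and Bhlhe40 was 1.45-fold higher (0.54 ± 0.08 SE; edgeR adjusted p = 3.88e-04). Nfil3 did not differ beyond its error, with a log2 difference of 0.11, a 95% interval of -0.15 to 0.37 and an edgeR adjusted p = 0.637.

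Rbpj was 1.27-fold higher with PAM3CSK4 than with biglycan, at 160.3 and 160.5 CPM against 124 and 128 CPM (log2 difference 0.35 ± 0.08 SE; edgeR adjusted p = 0.00672). Without biglycan replicate 7 its log2 difference was 0.32 (adjusted p = 0.122), with PAM3CSK4 replicate 3 left out it was 0.35 (0.0508) and with replicate 4 left out it was 0.35 (0.0665), so the call ended in these 3 cases. Over its 11 alternatives the adjusted p ranged from 3.86e-04 to 0.122. Maf was 1.28-fold higher (0.36 ± 0.09 SE; edgeR adjusted p = 0.0171). Its call ended without biglycan replicate 7 (0.30, adjusted p = 0.226), biglycan replicate 8 (0.41, adjusted p = 0.0625) or PAM3CSK4 replicate 4 (0.26, adjusted p = 0.262), over a range of 1.50e-04 to 0.262. Leaving out biglycan replicate 7 or PAM3CSK4 replicate 4 left 2 of the 5 called.

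The genes around the 5 were described from 9 lists of their networks. Each list count stands beside the shares called over all tested genes. These were 37.8% higher and 34.4% lower on polarization, and 5.21% and 4.78% with PAM3CSK4 against Th17. They were 5.66% and 5.88% with PAM3CSK4 against biglycan. Among 18 other transcription factors of the Th17 network, polarization raised 9 and lowered 7. Prdm1, among the 7, passed the filter on low counts through the naive libraries and had to differ. Ahr, the aryl hydrocarbon receptor, rose from 5.97 and 5.94 CPM in naive libraries to 158 and 101 CPM in Th17 libraries (log2 fold change 4.44 ± 0.20 SE). Irf4, a partner of the AP-1 factor Batf, rose by 2.43 ± 0.10 on the log2 scale. Ikzf3, which encodes Aiolos, rose by 2.83 ± 0.08. Junb, an AP-1 subunit, fell from 4625 and 4787 CPM in naive libraries to 240 and 215 CPM in Th17 libraries, and Batf fell by 0.82 ± 0.12. The list thus moved in both directions, as did all tested genes, with a median log2 fold change of 0.19 against 0.03 over all tested genes.

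PAM3CSK4 raised 7 of these 18 factors and lowered 0. The median log2 fold change of the list was 0.20, against -0.00 over all tested genes. Ahr rose to 258 and 274 CPM, 2.05-fold over Th17 (log2 fold change 1.04 ± 0.13 SE; edgeR adjusted p = 3.02e-05). Irf4 rose from 656 and 513 CPM to 883 and 901 CPM (0.61 ± 0.09 SE; edgeR adjusted p = 3.32e-04), and Fosl2, an AP-1 factor that restrains parts of the Th17 programme, rose by 0.65 ± 0.09. Junb rose by 0.46 ± 0.09, Batf by 0.49 ± 0.11, Id2, an inhibitor of E proteins, by 0.53 ± 0.13, and Stat3, the signal transducer of IL-6, by 0.31 ± 0.08. Without PAM3CSK4 replicate 4 the calls of these last 4 ended, with log2 fold changes of 0.36, 0.48, 0.36 and 0.29. Those of Id2 and Stat3 also ended without Th17 replicate 2 (0.29 and 0.28), that of Id2 also with DESeq2 and with robust estimation, that of Batf without Th17 replicate 1 (0.44) and that of Stat3 without PAM3CSK4 replicate 3 (0.34). Under biglycan 0 of the 18 passed the test in edgeR, with 1 at an unadjusted p under 0.05 and 0 with DESeq2.

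**Figure D4:**
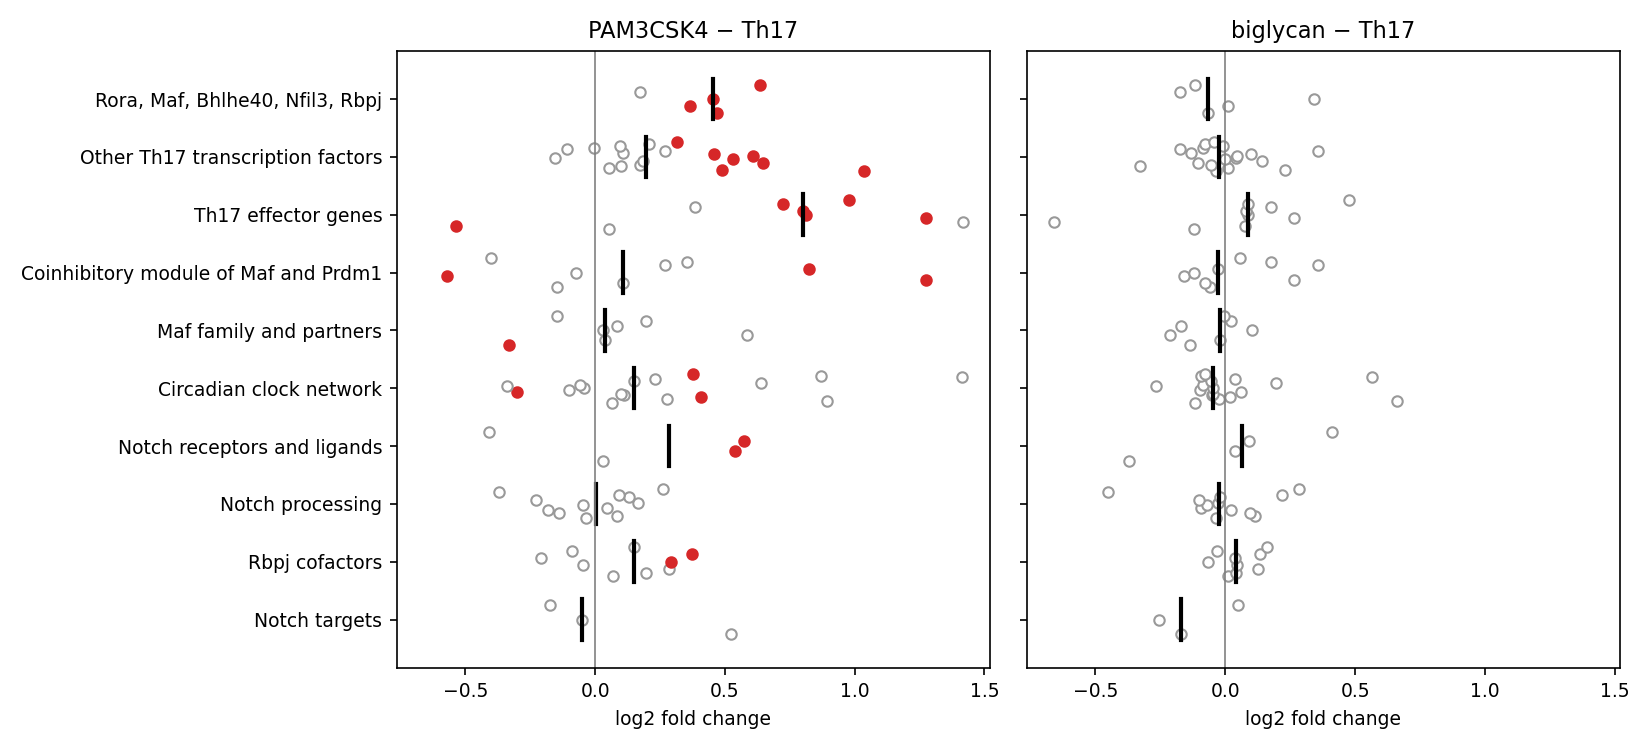
Log2 fold changes against Th17 cells of the 5 genes and of the 9 lists, with PAM3CSK4 on the left and biglycan on the right, on shared axes; each point is a tested gene, filled red where it was called, and the black line is the median. In the first row 4 of 5 points are filled with PAM3CSK4 and 0 with biglycan.

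The 13 listed effector genes show the programme that these factors serve, and 9 of them passed the filter. All 9 tested were higher in Th17 than in naive cells. Each of the 9 had at most 1 count in either naive library. All 9 thus passed the filter through the polarized libraries and had to differ. Il17a, which encodes interleukin 17A, had 0 counts in both naive libraries and 95.8 and 77.2 CPM in Th17 libraries. PAM3CSK4 raised 5 of the 9 and lowered 1, with a median log2 fold change of 0.80. Il17a reached 126 and 179 CPM with PAM3CSK4, a log2 fold change of 0.81 ± 0.12 SE (edgeR adjusted p = 3.92e-04). Ccr6, a chemokine receptor of Th17 cells, was the gene that fell, from 16.0 and 17.0 CPM to 12.4 and 10.3 CPM (-0.54 ± 0.16 SE; edgeR adjusted p = 0.0368), and its call ended with DESeq2 and without each of the 4 libraries (adjusted p up to 0.312 in a range from 0.0126). Without them its log2 fold change lay between -0.68 and -0.41. Under biglycan 0 of the 9 passed in edgeR, 0 were at an unadjusted p under 0.05 and 0 were called by DESeq2.

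Genes of the coinhibitory module that Maf and Prdm1 are known to promote moved in both directions on polarization, with 7 of 9 tested genes higher and 2 lower. Pdpn and Procr had 0 counts in both naive libraries, and Il10 and Lag3 had at most 2 counts in either, so these 4 passed the filter through the polarized libraries and had to differ. Prdm1 itself, which encodes Blimp-1, was one of those that fell, from 11.5 and 9.35 CPM to 0.591 and 0.290 CPM (log2 fold change -4.49 ± 0.39 SE). Without Th17 replicate 1 its log2 fold change was -5.10. Prdm1 had at most 8 counts in any polarized library, so it passed the filter through the naive libraries and had to differ. Ctla4, a coinhibitory receptor, rose from 111 and 129 CPM to 805 and 752 CPM. With PAM3CSK4 the module divided: 2 genes rose, 1 fell and 6 did not pass. Il10, the regulatory cytokine that Maf activates and Bhlhe40 represses, rose from 18.1 and 9.09 CPM to 24.6 and 42.3 CPM (1.28 ± 0.23 SE; edgeR adjusted p = 0.00131), and without PAM3CSK4 replicate 4 it was 0.84 with adjusted p = 0.0579, in a range from 3.42e-17. Without Th17 replicate 1 the log2 fold change of Il10 was 1.87. Pdpn, which encodes podoplanin, rose by 0.82 ± 0.16 (without Th17 replicate 2, 0.52). Lag3, a coinhibitory receptor, fell from 52.0 and 54.3 CPM to 37.5 and 33.9 CPM (-0.57 ± 0.10 SE; edgeR adjusted p = 9.74e-04). Under biglycan 0 of the 9 passed in edgeR, with 0 at an unadjusted p under 0.05 and 0 with DESeq2.

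The relatives and partners of Maf moved in both directions on polarization, as did all tested genes (37.8% called higher and 34.4% lower). Of 7 tested genes of the small Maf proteins and their Cnc and Bach partners, 3 were higher and 3 lower in Th17 than in naive cells. Maff, a small Maf protein, fell from 153 CPM in each naive library to 8.78 and 4.84 CPM (log2 fold change -4.47 ± 0.15 SE). Mafk, another small Maf, fell by 2.91 ± 0.08, while Mafg rose by 1.08 ± 0.15 and Bach2, a repressor that pairs with small Mafs, rose by 0.96 ± 0.09. With PAM3CSK4 only Bach1, a heme-sensing repressor, was called among the 7, and it fell by 0.33 ± 0.08 (edgeR adjusted p = 0.0129). That call ended without Th17 replicate 2, PAM3CSK4 replicate 3 or PAM3CSK4 replicate 4, with log2 fold changes of -0.28, -0.31 and -0.36. Maff had 10.4 CPM in each PAM3CSK4 library and did not pass (0.59 ± 0.19 SE; edgeR adjusted p = 0.0593), although it did with DESeq2, with no filter on low counts and without Th17 replicate 1. Its adjusted p ranged from 0.00245 to 0.582 over the 11 alternatives, and its log2 fold change was 1.10 without Th17 replicate 1 and 0.24 without Th17 replicate 2. Under biglycan 0 of the 7 passed in edgeR, with 0 at an unadjusted p under 0.05 and 0 with DESeq2.

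Bhlhe40 and Nfil3 act on the circadian clock, and Rora is one of its activators. Of 17 tested clock genes, 7 were higher and 7 lower in Th17 than in naive cells, beside 37.8% higher and 34.4% lower over all tested genes. Some activators rose: Arntl, which encodes BMAL1, went from 47.0 and 46.4 CPM to 169 and 155 CPM (log2 fold change 1.80 ± 0.09 SE), and Npas2 rose by 4.60 ± 0.34 from 0.149 and 1.14 CPM. The naive level of Npas2 rested on 1 and 9 counts. Its log2 fold change was 3.88 without naive replicate 1 and 6.70 without naive replicate 2. Npas2 passed the filter on low counts through the polarized libraries, where it was high, so its call carries no weight of its own. Clock, the partner of BMAL1, had a log2 fold change of 0.01 and did not pass. Several repressors fell: Per1 went from 268 and 291 CPM to 25.8 and 29.1 CPM (-3.35 ± 0.09 SE), Per2 fell by 4.88 ± 0.35, Cry2 by 2.03 ± 0.17 and Nr1d2, a REV-ERB receptor that opposes Rora at shared sites, by 1.14 ± 0.11. The other REV-ERB gene, Nr1d1, rose from 0.747 and 2.78 CPM to 4.73 and 6.48 CPM (1.59 ± 0.36 SE; edgeR adjusted p = 5.87e-04). Its log2 fold change was 0.99 without naive replicate 1 and 2.87 without naive replicate 2. Nr1d1, with 5 and 22 naive counts, also passed the filter through the polarized libraries. So did Hlf, another of the 7 higher genes, with 2 and 3 naive counts. Per3, among the 7 lower, passed it through the naive libraries. The calls of these genes likewise carry no weight of their own. Cry1, also a repressor, rose by 0.90 ± 0.11.

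With PAM3CSK4, 2 clock genes rose, 1 fell and 14 did not pass. Cry1 rose from 121 and 103 CPM to 135 and 163 CPM (log2 fold change 0.41 ± 0.10 SE; edgeR adjusted p = 0.0112), and its call ended without Th17 replicate 2 (0.30) or PAM3CSK4 replicate 4 (0.27). Tef, a D-box activator, rose by 0.38 ± 0.11 and Csnk1e, a kinase of the Period proteins, fell by 0.30 ± 0.09. Neither was called with DESeq2. Tef lost its call without each of the 4 libraries, with log2 fold changes of 0.30 to 0.45, and Csnk1e without Th17 replicate 2 (-0.17), PAM3CSK4 replicate 3 (-0.32) or PAM3CSK4 replicate 4 (-0.28). Under biglycan 0 of the 17 passed in edgeR, with 0 at an unadjusted p under 0.05 and 0 with DESeq2.

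Rbpj rose on polarization while Notch1 and Notch2 fell. Of 9 Notch receptors and ligands 4 were tested, and 3 were lower in Th17 than in naive cells: these 2 receptors and the ligand gene Jag2 (log2 fold change -1.47 ± 0.28 SE). The receptor gene Notch4, at 0.896 and 1.26 CPM in naive libraries and 0.760 and 1.16 CPM in Th17 libraries, did not pass the test. Notch1 fell from 396 and 390 CPM in naive libraries to 270 and 251 CPM in Th17 libraries (log2 fold change -0.59 ± 0.08 SE; edgeR adjusted p = 7.26e-07). Notch2 fell from 228 and 195 CPM to 179 and 166 CPM (-0.29 ± 0.09 SE; edgeR adjusted p = 0.00518), and its call ended without naive replicate 1 (-0.18) or Th17 replicate 2 (-0.24). Among 9 tested cofactors of Rbpj, 1 rose and 5 fell. Of 12 genes that process or modify Notch, 3 rose and 5 fell, with Adam10, the protease that cuts the receptor, higher by 1.09 ± 0.11.

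Notch targets moved apart from one another. Dtx1, which encodes Deltex, fell from 278 and 283 CPM in naive libraries to 1.60 and 1.35 CPM in Th17 libraries (log2 fold change -7.55 ± 0.14 SE; edgeR adjusted p = 1.29e-19). Hey1, a repressor induced by Notch, rose from 4.18 and 4.30 CPM to 10.8 and 10.3 CPM, and Nrarp, a feedback inhibitor of Notch, rose from 10.3 and 11.5 CPM to 20.4 and 19.0 CPM. The other 4 of the 7 targets did not pass the filter on low counts.

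With PAM3CSK4 Notch1 and Notch2 rose, and Notch4 (-0.41 ± 0.52 SE on the log2 scale) and Jag2 (0.03 ± 0.30 SE) did not pass the test. Notch1 had 382 and 376 CPM with PAM3CSK4, 1.45-fold over Th17 (log2 fold change 0.54 ± 0.08 SE; edgeR adjusted p = 1.18e-04), and Notch2 had 247 and 267 CPM, 1.49-fold over Th17 (0.57 ± 0.08 SE; edgeR adjusted p = 2.02e-04). Notch1 and Notch2 were called in all 11 alternatives. Both were also higher with PAM3CSK4 than with biglycan, by 0.50 ± 0.08 and 0.48 ± 0.08 on the log2 scale, and with biglycan they had 258 and 278 CPM and 179 and 189 CPM. Among the cofactors Maml2, a Mastermind-like coactivator, rose by 0.29 ± 0.09. It was not called with DESeq2 and lost its call without each of the 4 libraries, with log2 fold changes of 0.24 to 0.35. Of the 3 tested targets 0 passed in edgeR, 0 at an unadjusted p under 0.05 and 0 with DESeq2, and of the 12 processing genes 0 passed, with 2 at an unadjusted p under 0.05 and 0 with DESeq2. Under biglycan 0 of the tested genes of the 4 Notch lists passed in edgeR, with 1 at an unadjusted p under 0.05 and 0 with DESeq2.

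Between PAM3CSK4 and biglycan the lists gave 7 of 18 other Th17 factors higher and 0 lower, 5 of 9 effector genes higher and 1 lower, 2 of 9 coinhibitory genes higher and 1 lower, and 3 of 17 clock genes higher and 1 lower. Csf2, among the 5 effector genes, had 16 and 27 counts with PAM3CSK4 and 3 and 5 with biglycan. It passed the filter on low counts through the PAM3CSK4 libraries, where it was high, so its call carries no weight of its own. Clock was higher with PAM3CSK4 by 0.30 ± 0.09 on the log2 scale, and its call ended with DESeq2 and without each of the 4 libraries, at values of 0.22 to 0.38. Maff was the Maf family gene called higher, by 0.80 ± 0.20, and its call ended without each of the 4 libraries, at values of 0.65 to 0.97. Of the 9 cofactors of Rbpj, 1 was higher and 0 lower.

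Il2ra, an activation gene listed among the regulatory T cell markers, also differed between the groups. It had 487 and 380 CPM in Th17 libraries, 723 and 786 CPM with PAM3CSK4 and 411 and 459 CPM with biglycan. The summed level of the 5 regulatory T cell markers was 1175 to 1338 CPM in Th17 libraries, 1466 to 1544 CPM with PAM3CSK4 and 1192 to 1260 CPM with biglycan. Foxp3, their defining factor, was at 2.53 and 3.09 CPM in Th17 libraries and 1.57 and 2.08 CPM with PAM3CSK4. The part of such cells in the rises of the 5 genes was not tested.

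Genes with a pattern similar to that of Rora, Maf, Bhlhe40 or Nfil3 were ranked by the root mean square difference of log2 level, centred on each gene's mean over the 8 libraries, among 10072 genes. Ehd4 was nearest to Rora, with a difference of 0.113 and mean levels of 8.75, 104 and 143 CPM in naive, Th17 and PAM3CSK4 cells. Lgr4 was nearest to Maf (0.151), Rragd to Bhlhe40 (0.0911) and Zfp511 to Nfil3 (0.0898). Among the 5 themselves Bhlhe40 and Rbpj were closest to each other, at 0.145, and Maf and Nfil3 farthest apart, at 2.87. These distances are dominated by the gap between naive and polarized libraries.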

How the data were processed

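The submitters' processing notes name Bowtie2, HTSeq and mouse build mm9. For versions, gene annotation and strandedness, HTSeq settings included, nothing was given in the sources used here, so overlapping antisense genes cannot be told apart. The authors deposited raw counts per gene, which were the base of every test, and RPKM, used only to order genes per length. The percent of reads from mitochondrial RNA comes from the deposited mapping table. The 5 summary lines of the count table were left out; the largest, for alignments that were not unique, held 73.4 to 77.1% of a library's table.

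Columns were linked to samples by library number. For the biglycan libraries the number in the column name differed from that in the sample title, so the library number alone decided. Genes were filtered with filterByExpr, scaled with TMM factors and fitted in 1 quasi-likelihood model over all 8 libraries (R 4.3.3, edgeR 4.0.16; 4 residual degrees of freedom). CPM are counts relative to the scaled library totals. DESeq2 1.42.0, other scalings and filters, the 2 compared groups alone, a replicate block and leaving out each library were alternatives. Replicates differed by more than sampling noise, with chi-square per degree of freedom of 2.62 to 5.86. On simulated counts for PAM3CSK4 against Th17, 100% of 100 genes changed by 1 on the log2 scale and 77% of 100 changed by 0.5 were called. The simulation gave every gene the same spread and changed only genes of at least 5 CPM in Th17 cells. These shares may therefore be too high for the real libraries. The rule for named genes was the 5 genes, the genes of 15 lists, first those with the smallest p, and the 3 genes nearest each of the 5 in pattern; some of the genes so named are not reported here. The 5 genes and the lists were chosen with earlier results of these data known. List counts have no test of their own.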

Additional observations from a re-analysis of the deposited data

How the results depend on the processing

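Over 225 alternative values of the 5 genes, 209 kept their direction and side of the threshold, 14 lost their call and 2 changed sign. Rora and Bhlhe40 kept every call. The sign changes were in Maf between biglycan and Th17 cells, never called, which was -0.10 without Th17 replicate 2 and -0.04 without biglycan replicate 8, within 0.14 at the other end. Without single libraries, Maf ranged from 0.25 to 0.50 for PAM3CSK4 against Th17 and from 0.26 to 0.44 against biglycan, Nfil3 from -0.68 to -0.32 for Th17 against naive and from 0.40 to 0.51 for PAM3CSK4 against Th17, and Rbpj from 0.32 to 0.38 for PAM3CSK4 against biglycan. Nfil3 was 0.45 with DESeq2, no longer called. Counts of called genes moved as follows: for PAM3CSK4 against Th17 from 1162 to 773 with DESeq2 and to 361 to 938 without single libraries; for PAM3CSK4 against biglycan from 1342 to 881 with DESeq2, to 2231 with those 2 groups alone and to 360 to 777 without single libraries; for biglycan against Th17 from 0 to 1 with library totals, 29 with no filter and 1 to 6 without single libraries. The 5 genes called fell from 4 to as few as 2, and at most 3, without single libraries in both PAM3CSK4 comparisons. The lone library left in a group was assumed to vary like the other groups. Of 598 alternative values of other named genes, 545 kept their direction and side of the threshold, 50 lost their call, 3 gained a call and 0 changed sign. The causes were not tested. Same-numbered naive and Th17 libraries share only a number: their deviations correlated at 0.04 over 11629 genes, in 2 pairs, and with a replicate block 8051 genes were called against 8390, including all 5. With 2 libraries a group, small changes could be missed.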
